A study of Mus musculus with 6 samples.

Results

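The genes described here carry calcium, magnesium and chloride across the last segments of the nephron, the distal convoluted tubule and the connecting tubule. They were chosen by name: every array probe set annotated to Slc12a3, Calb1, Trpm6, Pvalb, Trpv5, Slc8a1, Klk1, S100g, Stk39 or Oxsr1. Of these 10 genes 9 were measured, by 22 probe sets, out of 18193 genes and 45037 probe sets in all. Trpv5 had no probe set in the annotation and is not analysed here. The kidneys came from male mice of 2 to 3 months. There were 3 samples from mice without the nuclear receptor ERRα, labelled ERRa KO, and 3 from wild type (WT) mice. Both kidneys of a mouse were ground together, so a value is a sum over every kidney cell type. Each sample was read on 1 Affymetrix expression array. The labels call the replicates biological without saying that each is another animal, and they give neither the strain nor the part of the gene removed. Where replicates are not separate animals, the p-values measure a spread that may be technical.

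In the distal convoluted tubule, the cotransporter encoded by Slc12a3 takes up sodium and chloride under the control of the kinases encoded by Stk39 (SPAK) and Oxsr1 (OSR1), and magnesium enters through the channel encoded by Trpm6. Further along, calcium enters through TRPV5, is carried across the cell by calbindins, and leaves through the sodium-calcium exchanger encoded by Slc8a1 and a plasma membrane calcium pump. Calcium transport in these segments is known to respond to vitamin D and parathyroid hormone. ERRα is known as a partner of the PGC-1 coactivators on genes of energy metabolism.

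Values are log2 intensities summarised by RMA, where a difference of 1 is a 2-fold change. A probe set is the group of short probes that reads a transcript, and where a gene has several, the one with the highest mean over the arrays stands for it. Changes are ERRa KO minus WT from limma, with a standard error (SE) from that fit. A gene was called when its p, adjusted by Benjamini-Hochberg over all genes, was under 0.05. The targeted gene Esrra read 6.66, 6.51 and 6.41 in ERRa KO kidneys, against 9.43, 9.43 and 9.52 in WT kidneys, which follows the sample labels used here. The authors' table heads its value columns the other way round for 45101 of 45101 probe sets, while its own fold change column follows the sample labels. Read by those heads, every direction below would turn. The array of ERRa KO replicate 3 stood apart in liver transcripts: 10 of 11 measured read highest there, and albumin (Alb) read 12.07 there, against 6.48 to 6.80 on the other 5 arrays.

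By the brightest probe set of each gene, the calcium buffer genes Calb1 and S100g and the kallikrein gene Klk1 read lower in every ERRa KO kidney than in any WT kidney. The calcium buffer gene Pvalb, the chloride cotransporter gene Slc12a3 and its kinase genes overlapped between genotypes. Another Stk39 probe set of nearly the same brightness did not overlap and read lower in ERRa KO kidneys (change -0.19). None of the 9 genes was called by limma, against 0.495% of all genes. The smallest adjusted p-values were 0.112 for Klk1, 0.162 for Calb1 and 0.249 for S100g. An unadjusted p under 0.05 was reached by 4 of 9, all lower in ERRa KO kidneys (Klk1, Calb1, S100g and Trpm6), against 6.20% of all genes with such a p and a lower value. Without WT replicate 2 that count was 2, and without ERRa KO replicate 3 it was 3. ERRa KO values lay below all WT values in 3 of the 9 genes, against 9.56% of all genes. Of the 9 genes 7 read lower and 2 higher, against 47.4% lower among all genes. Their median change was -0.08, against 0.01 over all genes. It read -0.19 without WT replicate 1, -0.13 without ERRa KO replicate 3, -0.12 with array weights and -0.04 without WT replicate 3.

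**Figure D1:**
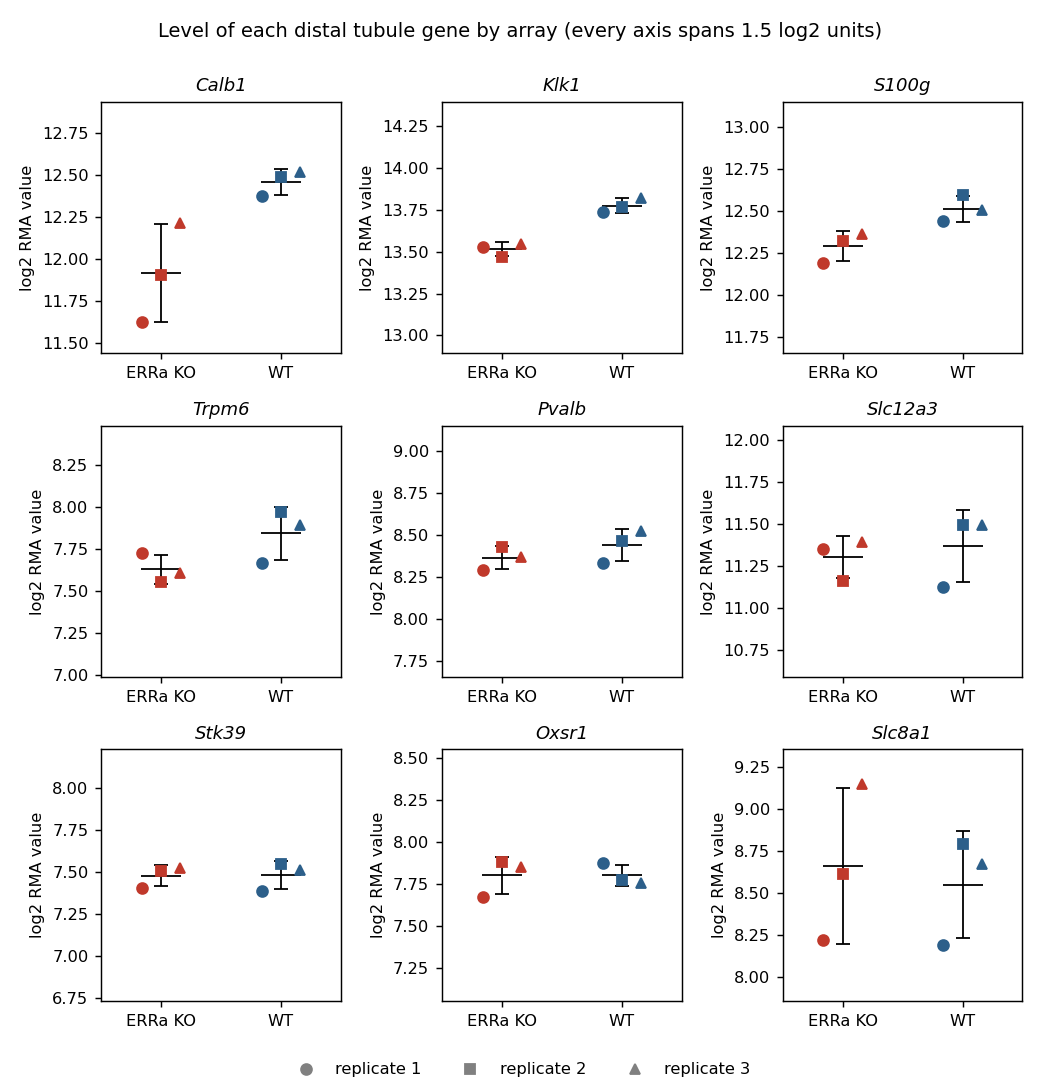
Log2 RMA value of each measured gene on each array, ERRa KO left and WT right. Points are arrays, with shapes for replicates, and the bar and whiskers give the mean and SD (n = 3). Each axis spans the same log2 distance. Calb1, Klk1 and S100g do not overlap between genotypes, and Slc8a1 spreads most within them.

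Calb1 encodes calbindin-D28k, the cytosolic calcium buffer that carries calcium through distal tubule cells. It read 11.63, 11.91 and 12.21 in ERRa KO kidneys, against 12.37, 12.49 and 12.52 in WT kidneys. The ERRa KO values were all below the WT values and were spread over 0.585, against 0.146 in WT. The mean was 11.92 ± 0.29 in ERRa KO and 12.46 ± 0.08 in WT kidneys (SD, n = 3 each), a change of -0.55 (SE 0.14, limma adjusted p = 0.162), which is a level 31.5% lower. The 95% interval of the change ran from -0.86 to -0.23. Of the other 3 Calb1 probe sets, one read 7.61, 7.95 and 8.31 in ERRa KO kidneys, against 8.55, 8.54 and 8.68 in WT kidneys. Another read 7.48, 7.78 and 8.27 in ERRa KO kidneys, against 8.45, 8.38 and 8.56 in WT kidneys. These 3 brighter probe sets ranked the ERRa KO arrays in 1 order, lowest in replicate 1 and highest in replicate 3, and none of them overlapped between genotypes. The dimmest one, near 4 on the log2 scale, overlapped, at 4.39, 3.71 and 3.99 in ERRa KO kidneys, against 4.03, 4.36 and 4.59 in WT kidneys. With 1 array left out, the change of the brightest ran from -0.69 without ERRa KO replicate 3 to -0.40 without ERRa KO replicate 1.

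S100g encodes calbindin-D9k, the smaller calcium buffer, which is also known from intestine and uterus. It read 12.19, 12.32 and 12.36 in ERRa KO kidneys, against 12.44, 12.59 and 12.51 in WT kidneys. The groups did not overlap, but the gap between the highest ERRa KO and the lowest WT kidney was smaller than the range within either genotype. The change was -0.22 (SE 0.07, limma adjusted p = 0.249, 95% interval -0.39 to -0.06), a level 14.3% lower. S100g has 1 probe set, so no other reading of the gene was available.

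Slc8a1 encodes NCX1, the exchanger that moves calcium out of the cell in return for sodium. It read 8.22, 8.62 and 9.15 in ERRa KO kidneys, against 8.19, 8.79 and 8.67 in WT kidneys. The genotypes overlapped fully, and the spread within them was the widest of the 9 genes, 0.929 in ERRa KO and 0.601 in WT kidneys. The change was 0.11 (SE 0.24, limma adjusted p = 0.884), with a 95% interval from -0.45 to 0.67. All 4 Slc8a1 probe sets read highest in ERRa KO replicate 3, and without that array the change was -0.13. The part of that array's liver transcripts in the Slc8a1 values was not tested.

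Klk1 encodes tissue kallikrein, a protease secreted by the connecting tubule that frees kinins. It read 13.53, 13.47 and 13.55 in ERRa KO kidneys, against 13.73, 13.77 and 13.82 in WT kidneys. The groups were tight and apart, with an SD of 0.04 in each. The change was -0.26 (SE 0.06, limma adjusted p = 0.112, 95% interval -0.39 to -0.13), a level 16.5% lower and the smallest p of the 9 genes. With the mean of its 4 probe sets in place of the brightest, the change was -0.14 (adjusted p = 0.312). The call was made with 2 other settings: the adjusted p was 0.00816 with an intensity trend in the variance and 0.0382 among genes at or above the median level. Over all the alternatives it ran from 0.00816 to 0.332. A 2nd bright probe set read 13.53, 13.44 and 13.52 in ERRa KO kidneys, against 13.73, 13.80 and 13.79 in WT kidneys. The 2 dimmer ones overlapped, with changes of -0.09 and 0.07.

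Kallikrein genes form a family of near-identical neighbours, and 3 of the 4 Klk1 probe sets carry the suffix that Affymetrix gives to probes shared with other sequences, so which member they read is uncertain. The 2nd bright probe set does not carry it. The family was therefore looked up after these values were seen. Klk1b5, a paralog, fell in ERRa KO kidneys: it read 5.61, 5.86 and 5.89 there, against 6.42, 6.62 and 6.57 in WT kidneys (change -0.75, SE 0.09, limma adjusted p = 0.0288). That probe set carries the shared suffix too, so which member it reads is equally uncertain. It lost the call when any 1 array was left out, with changes from -0.81 to -0.67 and adjusted p from 0.0507 to 0.117. Its other probe set, without the suffix, read 5.36, 5.36 and 5.03 in ERRa KO kidneys, against 6.13, 6.37 and 6.32 in WT kidneys, a change of -1.02 (limma adjusted p = 0.0226 over all probe sets). In the probe set fit that one kept its call without ERRa KO replicate 3 and lost it without any other array. Of 10 probe sets of 9 Klk1b genes, 2 were called, both of Klk1b5 and against 0.111% of all probe sets. In 5 of the 10 the ERRa KO values lay below all WT values, against 8.39% of all probe sets. The other 3 of these 5, of Klk1b24, Klk1b11 and Klk1b27, were dim, with WT means of 4.77, 4.40 and 3.996, below every array's median. How much of the Klk1 reading comes from paralogs was not tested.

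**Figure D2:**
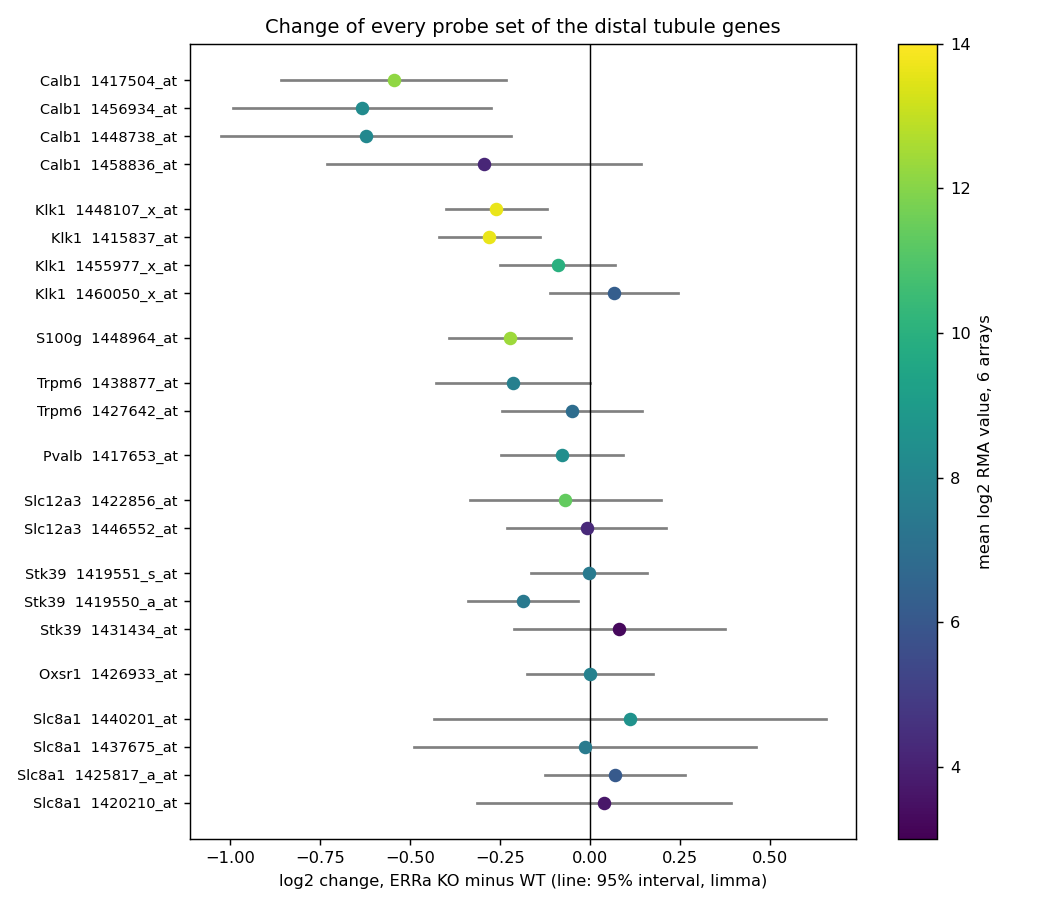
Change of each of the 22 probe sets on the log2 scale (ERRa KO minus WT), with the 95% interval of the limma fit over all probe sets. Colour gives the mean level on the 6 arrays. The 3 brighter Calb1 and the 2 brighter Klk1 probe sets lie below 0 with their intervals, and those of Slc8a1 straddle 0.

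Slc12a3 encodes NCC, the thiazide-sensitive cotransporter that defines the distal convoluted tubule. It read 11.35, 11.16 and 11.40 in ERRa KO kidneys, against 11.13, 11.50 and 11.50 in WT kidneys. The lowest of the 6 was a WT kidney. The change was -0.07 (SE 0.12, limma adjusted p = 0.849), with a 95% interval from -0.34 to 0.20. Its other probe set was dim, between 4.07 and 4.41, with a change of -0.01.

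The kinases showed no call either. Oxsr1 read 7.67, 7.88 and 7.85 in ERRa KO kidneys, against 7.87, 7.77 and 7.75 in WT kidneys, with equal means of 7.80 and a 95% interval from -0.17 to 0.17. Stk39 read 7.41, 7.51 and 7.52 in ERRa KO kidneys, against 7.39, 7.55 and 7.51 in WT kidneys, with a change near 0 and a 95% interval from -0.16 to 0.15. Its probe sets disagreed. A 2nd one of nearly the same brightness read 7.32, 7.30 and 7.41 in ERRa KO kidneys, against 7.52, 7.47 and 7.60 in WT kidneys. That probe set did not overlap between genotypes, and its change was -0.19 (SE 0.07, limma adjusted p = 0.372). The files do not say which part or transcript each probe set reads.

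Trpm6 encodes the magnesium channel of the distal convoluted tubule. It read 7.73, 7.56 and 7.61 in ERRa KO kidneys, against 7.67, 7.97 and 7.89 in WT kidneys. WT replicate 1 lay among the ERRa KO values. The change was -0.21 (SE 0.09, limma adjusted p = 0.393, 95% interval -0.43 to 0.00), and -0.13 with the mean of its probe sets. The dimmer probe set had a change of -0.05. Pvalb encodes parvalbumin, a calcium buffer that in the mouse kidney marks the early distal convoluted tubule. It read 8.29, 8.43 and 8.37 in ERRa KO kidneys, against 8.33, 8.46 and 8.52 in WT kidneys, and overlapped (change -0.08, SE 0.07, adjusted p = 0.701).

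Among probe sets, 0 of 22 were called in the fit over all probe sets, against 0.111% of all. An unadjusted p under 0.05 was reached by 8 of the 22, all lower in ERRa KO kidneys, against 5.77% of all probe sets. These were 3 of Calb1, 2 of Klk1 and 1 each of S100g, Stk39 and Trpm6. Probe sets of 1 gene read the same RNA and are not independent. In the authors' deposited table the log2 fold changes of the brightest probe sets are -0.55 for Calb1, -0.26 for Klk1 and -0.22 for S100g. They equal the differences of the group means of the same values, to within 7.8e-07, and are no separate reading.

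Calb1 and Klk1 were also set against Slc12a3, and Calb1 against S100g, within each array, as pairs chosen after the values were seen. Calb1 minus Slc12a3 was 0.27, 0.74 and 0.82 in ERRa KO kidneys, against 1.25, 0.99 and 1.02 in WT kidneys, without overlap and with a difference of -0.48 between the means. Calb1 minus S100g differed by -0.32 and Klk1 minus Slc12a3 by -0.19 between the genotypes. An exact permutation test of 3 arrays against 3 cannot give a two-sided p under 0.1, so whether the genes differ in their change is not decided by these data, and the differences are given as values.

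Markers of other cell types were read on the same arrays. In a whole organ, fewer cells of a type and less RNA per cell cannot be told apart. Beside the counts below, 47.4% of all genes read lower in ERRa KO kidneys. Thick ascending limb markers read lower in 5 of 7 genes, with a mean log2 level of 9.76 to 9.90 in ERRa KO kidneys, against 9.995 to 10.10 in WT kidneys, and a summed linear intensity of 17758 to 20458, against 21188 to 22533. ERRa KO values lay below all WT values in 4 of these 7 markers and above all WT values in 1. Among all 18193 genes that held for 1740 and 1658. Intercalated cell markers read lower in 6 of 7 genes, with a mean of 8.27 to 8.45 in ERRa KO kidneys, against 8.52 to 8.69 in WT kidneys, and a summed intensity of 2338 to 2610, against 2735 to 3172. Neither list's mean overlapped between genotypes. Principal cell markers (4 of 8 lower, mean 9.14 to 9.21 and sum 6023 to 6438 in ERRa KO, against 9.04 to 9.38 and 5364 to 6792 in WT) and proximal tubule markers (4 of 10 lower, mean 12.35 to 12.42 and sum 57913 to 60583 in ERRa KO, against 12.37 to 12.41 and 58887 to 60797 in WT) overlapped. Podocyte markers read higher in 5 of 5 genes, with a mean of 7.68 to 7.81 and a sum of 1498 to 1655 in ERRa KO kidneys, against 7.54 to 7.63 and 1416 to 1529 in WT kidneys. The dimmest markers of these lists still averaged 5.98 (Cldn19, thick ascending limb) or more. The part of these shifts in the lower Calb1, S100g and Klk1 values was not tested.

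Other genes of distal ion handling were taken from a list of 45, of which 42 were measured. None was called, against 0.495% of all genes. Of the 42, 28 read lower and 14 higher, against 47.4% lower among all genes. Their median change was -0.04, against 0.01 over all genes. An unadjusted p under 0.05 was reached by 6, 5 lower and 1 higher, against 12.4% of all genes in either direction. Casr, the calcium-sensing receptor gene of the thick ascending limb, read 7.23, 7.05 and 7.25 in ERRa KO kidneys, against 7.45, 7.63 and 7.68 in WT kidneys (change -0.41, SE 0.08, limma adjusted p = 0.103). Cldn16, which encodes the claudin of paracellular magnesium uptake in the same segment, read 7.25, 7.19 and 7.22 in ERRa KO kidneys, against 7.57, 7.55 and 7.68 in WT kidneys (change -0.38, SE 0.06, adjusted p = 0.052). Neither gene overlapped between genotypes. ERRa KO values lay below all WT values in 5 of the 42 genes, against 9.56% of all genes. Cldn16, Slc12a1 (change -0.151) and Cldn19 (change 0.007) are also among the 7 thick ascending limb markers above, so the lists are not independent. Over all the alternative settings the limma adjusted p ran from 0.0176 to 0.186 for Cldn16 and from 0.0433 to 0.304 for Casr.

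Bsnd, the chloride channel subunit gene, read 7.51, 7.52 and 7.79 in ERRa KO kidneys, against 7.93, 7.92 and 8.02 in WT kidneys (change -0.35, adjusted p = 0.154). The basolateral potassium channel gene Kcnj16 had a change of -0.14 and the calcium pump gene Atp2b1 one of -0.15, with limma adjusted p of 0.364 and 0.378. The kinase genes upstream of SPAK and OSR1 had 95% intervals that include 0, with changes of -0.08 for Wnk1 and -0.11 for Wnk4. By ion, 9 of 12 calcium genes, 8 of 12 magnesium genes and 11 of 18 sodium chloride genes read lower, against 47.4% of all genes.

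**Figure D3:**
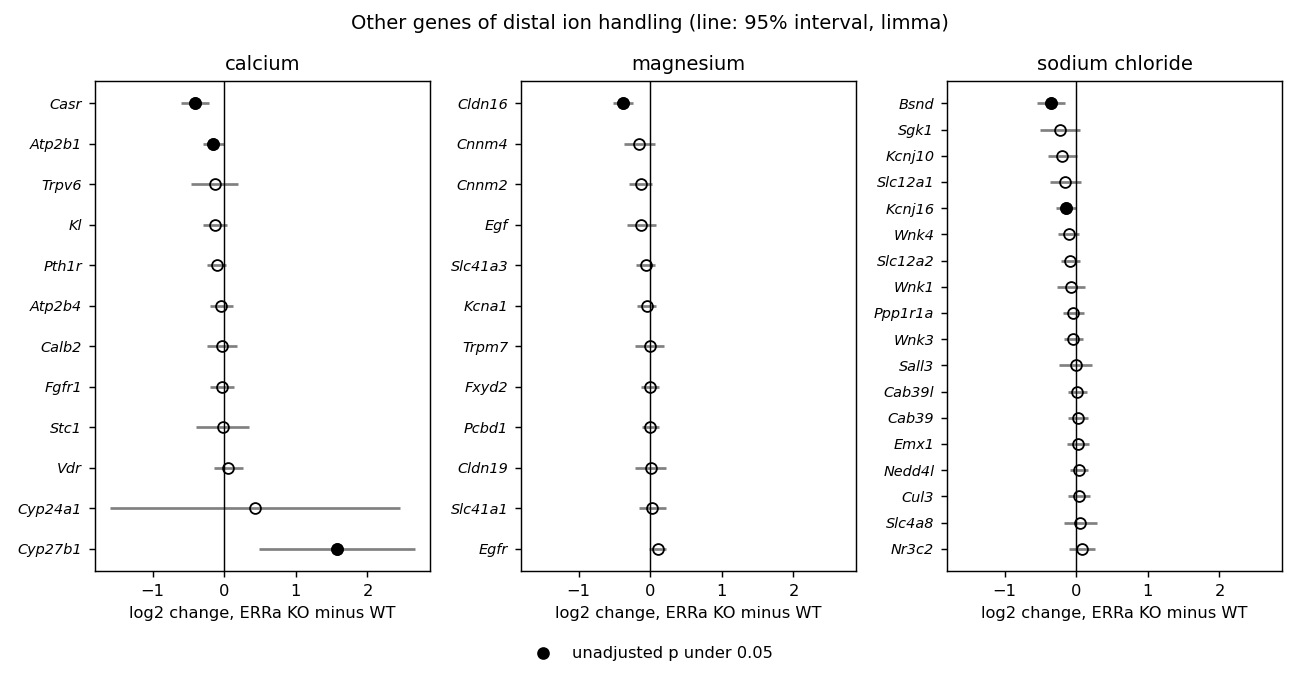
Change (ERRa KO minus WT, log2 scale) of the 42 other genes of calcium, magnesium and sodium chloride handling, with 95% intervals from limma. Filled points have an unadjusted p under 0.05. Cyp27b1 lies farthest to the right and Cyp24a1 has the widest interval.

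The 1 related gene with an unadjusted p under 0.05 and a higher value was Cyp27b1, which encodes the enzyme that activates vitamin D. It read 8.78, 6.84 and 8.23 in ERRa KO kidneys, against 6.94, 6.05 and 6.13 in WT kidneys. ERRa KO replicate 2 lay within the WT range. The change was 1.58 (SE 0.47, limma adjusted p = 0.226), with a 95% interval from 0.49 to 2.67. Cyp24a1, which encodes the enzyme that inactivates vitamin D and is induced by it, was picked out after its values were seen. It read 7.90, 10.62 and 10.89 in ERRa KO kidneys, against 7.94, 10.16 and 10.03 in WT kidneys (change 0.43, SE 0.87, adjusted p = 0.877). It split the arrays by replicate, not by genotype: replicate 1 was lowest in both, by over 2 log2 units. Replicate 1 also had the highest Cyp27b1 of its genotype.

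The same replicate was lowest in both genotypes for 5 of the 9 distal genes, Calb1, S100g, Pvalb, Slc8a1 and Stk39, against 10.3% of all genes, a count made after the pattern was seen. Vdr, the vitamin D receptor gene, read 10.35, 10.63 and 10.64 in ERRa KO kidneys, against 10.42, 10.49 and 10.52 in WT kidneys. The lowest Vdr value of each genotype was again that of replicate 1. The labels do not say that equal numbers share a day or litter.

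**Figure D4:**
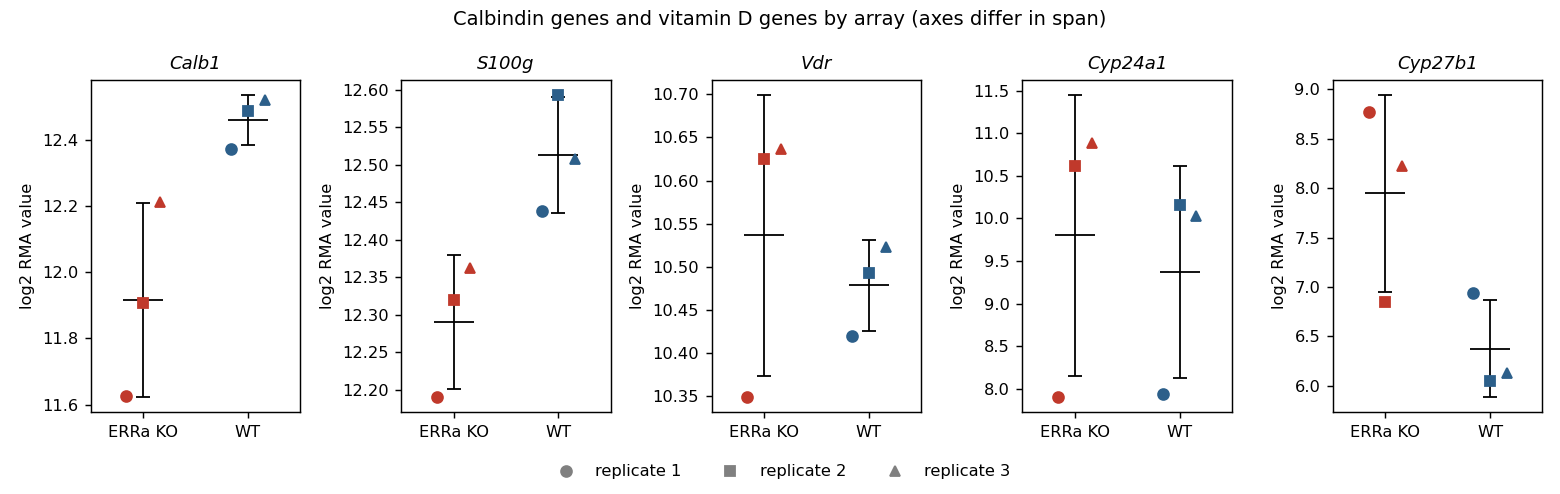
Log2 RMA values of the calbindin genes Calb1 and S100g and of Vdr, Cyp24a1 and Cyp27b1 on each array, with mean and SD (n = 3). Shapes mark the replicate number. Replicate 1 is the lowest of its genotype in the first 4 panels and the highest in the last.

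The genes whose values over the 6 arrays were most like those of Klk1 were Capn15, Mcm2, Car2 and Pign, among 9936 genes with a mean of 6 or more. Likeness was the root mean square distance between values centred on each gene's own mean, and these lay between 0.024 and 0.028 log2 units from Klk1. None of the 4 was called. Their changes ran from -0.29 for Car2 to -0.23 for Mcm2, close to that of Klk1 because the genes were chosen by likeness to it. With the mean of each gene's probe sets, the changes were -0.069 for Capn15, -0.067 for Pign, -0.235 for Mcm2 and -0.287 for Car2.

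Upstream sequences were read for the distal genes, whichever way they read. RefSeq promoter windows (GRCm38.p6, the 250 bases before a start site) were held for 9 of the 10 genes, with 10 windows in all. Trpv5, which was not measured, has one, and Calb1, with the largest change of the 9 genes, has none. The windows of Trpm6, Trpv5 and Oxsr1, and the Pvalb window at chr15:78204238-78204487, lie wholly inside the annotated gene. Those of Slc12a3 and Stk39 lie partly inside it, and those of Klk1 and S100g directly before it. The counts over the 10 windows are therefore not all of sequence before the annotated gene. The core of the ERR binding motif, AAGGTCA on either strand, was found in 2 of the 10 windows, those of Klk1 and S100g, and in 4.08% of 32851 promoters. The longer form TCAAGGTCA, which contains that core, was found in 0 of the 10 and in 0.387% of all. The estrogen response element core (GGTCA, 3 bases of any kind, TGACC) was found in 0 of the 10 windows and in 0.0639% of all, and a vitamin D direct repeat (GGTCA, 3 bases of any kind, AGGTCA) in 0 of the 10 and in 0.0152% of all. Both strands were searched for each. The windows of Klk1 (chr7:44225110-44225359, plus strand) and S100g (chrX:162964600-162964849, minus strand) are shown because they hold the matches, which are in capitals (TGACCTT is the same core on the other strand).
Klk1: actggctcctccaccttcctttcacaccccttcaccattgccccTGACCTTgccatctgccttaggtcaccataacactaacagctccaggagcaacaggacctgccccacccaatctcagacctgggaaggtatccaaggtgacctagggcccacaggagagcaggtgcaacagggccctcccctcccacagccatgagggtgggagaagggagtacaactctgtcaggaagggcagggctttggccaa
S100g: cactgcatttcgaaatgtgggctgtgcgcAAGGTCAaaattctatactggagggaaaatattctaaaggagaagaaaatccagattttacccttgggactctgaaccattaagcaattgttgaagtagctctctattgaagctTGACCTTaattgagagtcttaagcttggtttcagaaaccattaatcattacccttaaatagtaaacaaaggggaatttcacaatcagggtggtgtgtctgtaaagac
The Klk1 match begins 206 bases before the start site, and those of S100g 221 and 107 bases before it. A match is a run of letters and does not show binding.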

How the data were processed

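Total RNA of whole kidneys was hybridised to 1 Affymetrix array per sample. Per the submitters' processing notes, the authors used RMA to make the deposited log2 values, and its settings are not named there. RMA makes arrays alike in overall brightness and compresses low levels. The authors' deposited table also holds a log2 fold change and a p-value per probe set, whose test is not named in the file header. Array medians lay between 5.01 and 5.06, array correlations between 0.994 and 0.998, and at most 131 values of any pair were identical. The number of arrays limits the precision.

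Of 45101 probe sets, 64 controls were left out. A platform annotation named 1 gene for 34945 probe sets, several for 932 and none for 9160, and 34741 matched an annotation of GRCm38.p6 by identifier. Only probe sets with 1 name were used for genes. Fits used limma 3.58.1 in R 4.3.3 (lmFit, eBayes, two-sided, genotype only) over 18193 genes, and over 45037 probe sets, with no filter or pseudocount. On simulated data for this comparison with 18193 genes, 57% of genes changed by 0.5 and 95% of those changed by 1.0 were recovered, and 9 unchanged genes were called. Smaller changes, such as those of every measured distal gene but Calb1, were not simulated, so their recovery is not known. The 57% is a share over randomly drawn genes, each with its own spread, and does not give the recovery of Calb1.

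Genes named are the members, Esrra, related genes with an unadjusted p under 0.05, the 4 nearest profiles to the member with the smallest p, and Alb with the liver list. Klk1b5, Cyp24a1, Vdr, Wnk1 and Wnk4 were added after their values were seen. Slc12a1 and Cldn19 are named as related genes that are also thick ascending limb markers. The members and lists were chosen with earlier results of these data known. Alternatives were a block for the replicate number, array weights, repeated quantile normalization, an intensity trend, a level filter, the mean of a gene's probe sets, and leaving out each array. Same-numbered arrays did not deviate together (correlations -0.078 to -0.003), so the numbers were not taken as pairs.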

Additional observations from a re-analysis of the deposited data

How the results depend on the processing

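The 9 measured distal genes gave 0 calls in most settings, and 1 (Klk1) with an intensity trend and with only genes at or above the median level. Among their probe sets 2 were called with the trend, both of Klk1. Of the related genes 1 was called with array weights and 1 with the mean of all probe sets (Cldn16 in each), and 2 with the trend and with the level filter (Cldn16 and Casr). The trend called 309 genes in all and the level filter 220, against 90 in the fit reported. Leaving out 1 array gave 0 calls in each of these 3 counts, and 10 to 39 over all genes. The median change of the 9 genes ran from -0.192 to -0.036 when 1 array was left out. With a replicate block the calls stayed at 0 of 9 genes, 0 of 22 probe sets and 0 related genes, with 18 genes called in all. Calb1 then had an adjusted p of 0.154 and Klk1 of 0.241, Klk1b5 kept its call over all genes (adjusted p = 0.0353), and its probe sets lost theirs over all probe sets (0.0668 and 0.0835). No array correlated best with its own number.

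Directions turned for some genes, among them Cyp24a1 and Alb, whose changes of 0.428 and 1.757 were not near 0. When 1 array was left out the changes ran from -0.192 to 0.003 for Slc12a3, from -0.13 to 0.33 for Slc8a1, from -0.050 to 0.034 for Stk39, from -0.039 to 0.064 for Oxsr1, from -0.29 to 1.38 for Cyp24a1 and from -0.055, without ERRa KO replicate 3, to 2.74 for Alb. Among probe sets they ran from -0.072 to 0.095 for the dim one of Slc12a3, from -0.27 to 0.18 and from -0.11 to 0.21 for 2 of Slc8a1, from -0.009 to 0.222 for the dimmest of Stk39 and from -0.087 to 0.016 for the dimmer of Trpm6. With repeated quantile normalization Stk39 read 0.013 in the gene fit and 0.008 in the probe set fit, and with array weights the dim Slc12a3 probe set read 0.023. The cause was not tested. The level filter left out Klk1b5, so that fit gives it no value, and it called Capn15 (0.0376) and Car2 (0.023), 2 of the genes most like Klk1; the trend called Car2 too (0.00415). Calb1, S100g, Pvalb, the brighter Trpm6 probe set and, in the gene fit, Klk1 read lower in every setting tried. So did the 2nd Stk39 probe set, with changes from -0.218 to -0.15 when 1 array was left out. The dimmest Klk1 probe set read higher in every setting, with changes from 0.005 to 0.108 when 1 array was left out. The dimmest probe sets of Calb1, Slc12a3 and Slc8a1, near 4 on the log2 scale, are limited in what they can show. For Slc12a3 that was the only other reading, while Calb1 and Slc8a1 also had brighter ones.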
